A study of Mus musculus with 2 samples.

Results

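Transcripts of 10 genes that govern entry into and exit from mitosis were examined in mRNA sequencing of whole liver from 1 control library and 1 iFIRKO library. The genes are *Cdk1*, *Ccnb1*, *Ccnb2*, *Cdc25b*, *Cdc25c*, *Plk1*, *Aurka*, *Cdc20*, *Ube2c* and *Pttg1*, found by their symbols as 10 of the 53342 rows of each deposited table. They were chosen by their role, with their values in these same libraries already known, so the difference between the libraries is given for them as a description. iFIRKO mice are labelled Adipoq-CreERT2; Insr flox/flox. Their Cre is driven by the adiponectin promoter and activated by tamoxifen, so the insulin receptor gene is removed in adipocytes and not in hepatocytes. The control is labelled WT, whereas the study's methods describe control mice as IR flox/flox. All mice were male, began a course of 5 daily intraperitoneal tamoxifen injections of 100 mg/kg at the age of 7 weeks, and were examined 3 days after the last injection, so the control liver had received tamoxifen as well. Whether a library came from a single animal or from several is not stated, and with 1 library per genotype no difference below has a replicate check within the sequencing. Separately, the paper reported significantly higher *Ccnb1*, *Cdk1*, *Ccna2* and *Cdk2* in iFIRKO liver by quantitative RT-PCR on replicate mice. It also reported more hepatocytes positive for Ki-67 by immunostaining.

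Cyclin-dependent kinase 1 is inert until a cyclin, such as one of the B type, binds it. A CDC25 phosphatase must also strip off the inhibitory phosphates that the WEE1 and PKMYT1 kinases put on. The active complex drives the cell into mitosis with the help of the kinases PLK1 and Aurora A. The anaphase-promoting complex or cyclosome (APC/C), a ubiquitin ligase, then ends mitosis by marking cyclin B and securin for destruction, with CDC20 choosing the substrates and UBE2C supplying the first ubiquitin. These mRNAs accumulate in G2 and M phase and are scarce in adult liver, where most hepatocytes rest outside the cell cycle. In whole tissue, more cells with such transcripts and more transcript per cell cannot be told apart.

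The authors gave each gene as the log2 of a normalized read count, returned here to normalized reads. The libraries held an estimated 42300000 reads (control) and 41300000 reads (iFIRKO). *Insr* had 4246 normalized reads in control liver and 3692 in iFIRKO liver, a ratio of 0.870 with an interval from 0.817 to 0.926, and since it is deleted in adipocytes only, this liver value does not check the labels. Hepatocyte transcripts dominated both libraries, with *Alb* at 4167154 and 3944155 normalized reads. Each ratio below is the iFIRKO value over the control value, with a 95% exact Clopper-Pearson interval on the estimated read pairs. Such an interval covers counting error and not the variation between mice.

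Of the 10 mitotic control genes, 8 were higher in iFIRKO liver by over 1.5-fold, beside 4.46% of the 13400 genes tested, and 0 were lower by over 1.5-fold, beside 7.28%. The 8 genes were *Ccnb1*, *Cdc20*, *Plk1*, *Ube2c*, *Cdc25c*, *Aurka*, *Ccnb2* and *Cdk1*, at 2.08 to 4.30 times the control value. *Pttg1* and *Cdc25b* were the other two, and neither was past 1.5-fold. The same 8 genes had a counting interval wholly above a ratio of 1, as did 20% of the genes tested. A gene was tested when it reached 41.8 normalized reads in either library, and its fold was taken after 4.18 normalized reads had been added to both values. By that measure 9 of the 10 genes passed in both libraries, and *Cdc25c* passed through the iFIRKO library alone, so it could be tested only because it was high there. The median log2 fold change was 1.15 over the 10 genes and 0.0075 over all genes tested. Summed, the 10 genes had 2188 normalized reads in control liver and 4677 in iFIRKO liver, a ratio of 2.14 with an interval from 1.99 to 2.30. Because these values were known when the genes were picked, nothing is read from the counts.

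**Figure D1:**
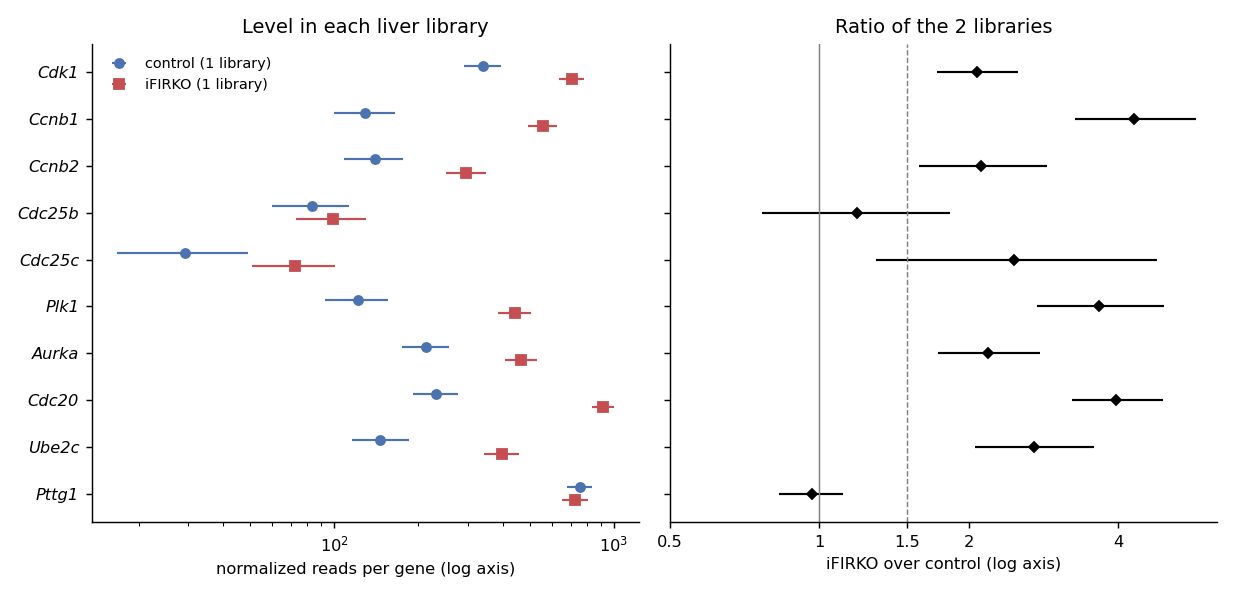
Normalized reads of the 10 mitotic control genes in the control library (circles) and the iFIRKO library (squares), left, and the ratio of the libraries (diamonds), right, both on log axes, with 95% counting intervals as bars and dashed and solid lines at ratios of 1.5 and 1. The bars of the 2 libraries lie apart for 8 genes and overlap for *Cdc25b* and *Pttg1*.

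The kinase itself, *Cdk1* (ENSMUSG00000019942.13, chromosome 10 of GRCm38, 69335146 to 69352938, reverse strand), had 340.0 normalized reads in control liver and 706 in iFIRKO liver. The ratio was 2.08, with an interval from 1.73 to 2.51. Its activating partner *Ccnb1*, which encodes cyclin B1 (chromosome 13, 100778650 to 100786570, reverse strand), stood at 129 normalized reads in control liver and 555 in iFIRKO liver. This was the widest gap of the 10 genes, a ratio of 4.30 with an interval from 3.27 to 5.73, and *Ccnb1* ranked 20 among the 13400 genes by log2 fold change. *Ccnb2*, the gene of cyclin B2, which resides mainly at the Golgi (chromosome 9, 70407692 to 70421547, reverse strand), had 140 and 296 normalized reads. Its ratio of 2.12, with an interval from 1.59 to 2.87, was close to that of *Cdk1*, and its interval lay below that of *Ccnb1*.

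Near-identical copies make the exact value of *Ccnb1* uncertain, since how reads matching more than 1 gene were treated is not given in the sources used here. The processed pseudogenes *Ccnb1-ps*, *Gm12856* and *Gm4870* together had 4.64 normalized reads in control liver and 22.4 in iFIRKO liver. With them added, *Ccnb1* had 134 and 578 normalized reads and a ratio of 4.32, so the reads assigned to the copies changed the ratio little. Any reads left out for matching more than 1 gene cannot be seen this way. *Ccnb2-ps* was listed at 0 in the control and had 6.04 normalized reads in the iFIRKO library, and adding it took the ratio of *Ccnb2* to 2.16. Of similarly named genes, *Cdc20b* was listed at 0 in both libraries, and *Pttg1ip*, which encodes a protein that binds securin, had 9453 and 9766 normalized reads.

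The CDC25 phosphatases, which switch the cyclin B complex on, differed from each other. *Cdc25b* (chromosome 2, 131186949 to 131198497, forward strand), whose product acts early at the centrosome, had 83.0 normalized reads in control liver and 98.6 in iFIRKO liver. Its ratio of 1.19 had an interval from 0.767 to 1.83, so no difference was detectable at this depth. *Cdc25c*, the form that CDK1 and PLK1 activate at mitotic entry, had 29.4 and 72.5 normalized reads, which stand for an estimated 14.8 and 36.0 read pairs. The ratio of 2.47 had the widest interval of the 10 genes, from 1.30 to 4.78. Beside them, *Cdc25a*, which acts mainly at the start of S phase, had 230 normalized reads in control liver and 204 in iFIRKO liver.

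Both mitotic kinases were higher. *Plk1* (chromosome 7, 122159439 to 122169873, forward strand), the polo-like kinase that promotes centrosome maturation and mitotic entry, had 122 normalized reads in control liver and 444 in iFIRKO liver, a ratio of 3.65 with an interval from 2.74 to 4.94. *Aurka* (chromosome 2, 172356190 to 172370535, reverse strand), which encodes the spindle pole kinase Aurora A, had 213 and 465 normalized reads, a ratio of 2.19 with an interval from 1.73 to 2.78. The interval of *Plk1* overlapped that of *Aurka* by a narrow margin.

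The APC/C arm held both the second widest gap and the smallest. *Cdc20* (chromosome 4, 118432901 to 118437352, reverse strand), the coactivator used in mitosis, had 231 normalized reads in control liver and 916 in iFIRKO liver. The ratio was 3.96, with an interval from 3.23 to 4.92, at rank 24 of the 13400 genes. *Ube2c* (chromosome 2, 164769898 to 164778822, forward strand), the ubiquitin-conjugating enzyme that starts the chains, had 146 and 396 normalized reads and a ratio of 2.71, with an interval from 2.06 to 3.57. *Pttg1* (chromosome 11, 43420250 to 43426251, reverse strand) encodes securin, the separase inhibitor that the APC/C destroys at anaphase, and it had 755 normalized reads in control liver and 728 in iFIRKO liver. Its ratio was 0.964, with an interval from 0.831 to 1.11, so a 1.5-fold difference lay outside its counting error in either direction.

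**Figure D2:**
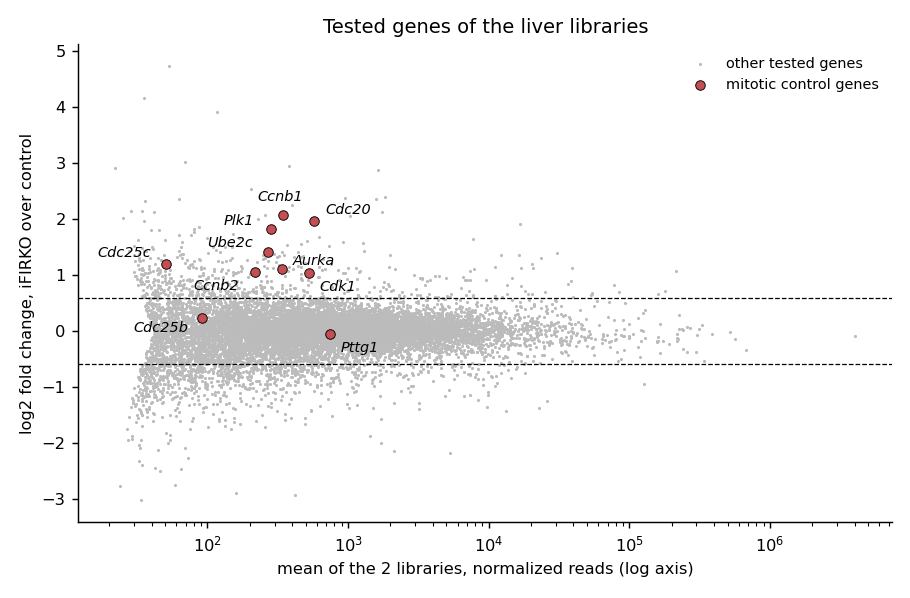
Log2 fold change of iFIRKO over control against the mean of the libraries in normalized reads (log axis) for the 13400 tested genes in grey, with the 10 mitotic control genes in red and dashed lines at 1.5-fold. Of the 10 genes, 8 lie above the upper line, *Ccnb1* the highest at 2.07, while *Cdc25b* at 0.24 and *Pttg1* at -0.05 lie between the lines.

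Exons of 5 of the genes overlap a gene on the opposite strand in the GENCODE M21 annotation, and although the kit marks strand, the counting is not stated to use it. The overlap that takes the largest share of a gene's exon length, 592 of the 2600 nt of *Ube2c* (22.8%), is with *Tnnc2*, which was listed at 0 in both libraries. For *Cdc25c* it is 623 nt (12.7%) with *Gm3550*, at 2.67 and 4.28 normalized reads, and for *Plk1* 156 nt with *Gm44985*, at 0 and 4.03. *Elovl1*, which shares 53 nt with *Cdc20*, was abundant at 1738 and 1616 normalized reads but was not higher in the iFIRKO library. *Spef1*, which shares 92 nt with *Cdc25b*, had 72.5 and 72.7.

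Levels of different genes were compared as normalized reads per kilobase of annotated exon. That length joins the exons of all annotated transcripts of a gene, 7 for *Cdk1* (4934 nt) and 1 for *Ccnb2* (1531 nt). It can exceed the length of the mRNA present, so the order between genes is uncertain beyond the counting intervals. The same length divides a gene in both libraries. In the control library *Pttg1* was the most abundant at 377 normalized reads per kilobase, followed by *Cdc20* at 124, *Ccnb2* at 91.4, *Aurka* at 84.0 and *Cdk1* at 68.9. Below these came *Ube2c* at 56.3, *Plk1* at 55.3, *Ccnb1* at 30.6, *Cdc25b* at 22.3 and *Cdc25c* at 5.98. Counting intervals of neighbours in this order overlapped except between *Pttg1* and *Cdc20*, *Plk1* and *Ccnb1*, and *Cdc25b* and *Cdc25c*. The order was different in the iFIRKO library, where *Cdc20* led at 490 normalized reads per kilobase, above *Pttg1* at 364. *Plk1* had moved up to the third place at 202, level within counting error with *Ccnb2* at 194. *Aurka* at 184, *Ube2c* at 153, *Cdk1* at 143 and *Ccnb1* at 132 followed with overlapping neighbours, and *Cdc25b* at 26.5 and *Cdc25c* at 14.7 were again the lowest.

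Ratios between partners within a library show how the balance of these transcripts differed, free of any scaling between the libraries. Per kilobase, *Ccnb1* stood at 0.445 of *Cdk1* in the control, with an interval from 0.329 to 0.595, and at 0.920 in the iFIRKO library, with an interval from 0.783 to 1.08. The share of cyclin B1 transcript relative to its kinase was therefore higher in the iFIRKO library beyond counting error. For *Ccnb2* over *Cdk1* the values were 1.33 and 1.35, and for *Ccna2*, the cyclin A2 gene, over *Cdk1* they were 1.13 and 1.04, each with overlapping intervals. *Cdc20* over *Fzr1*, the coactivator that replaces CDC20 late in mitosis and holds the APC/C active in G1, was 1.03 in control liver and 4.07 in iFIRKO liver, with intervals from 0.817 to 1.28 and from 3.50 to 4.76. *Ube2c* over *Ube2s*, the enzyme that extends the ubiquitin chains, was 0.519 and 0.942, with intervals from 0.398 to 0.675 and from 0.792 to 1.12. *Pttg1* over *Espl1*, the gene of the separase that securin holds in check, moved the other way, from 37.4 to 16.6, with intervals from 27.6 to 52.9 and from 13.2 to 21.1. *Ccnb1* over *Ccnb2* was 0.335 and 0.680, with intervals apart. The remaining pairs, *Cdc25c* over *Cdc25b* (0.268 and 0.557), *Plk1* over *Bora* (6.28 and 11.6) and *Aurka* over *Tpx2* (1.66 and 1.82), had overlapping intervals.

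The rest of the pathway was described from lists of partner genes and read beside the shares of 4.46% higher and 7.28% lower. The lists share genes, so their counts are not separate: *Ccna2* is both a CDK1 partner and an APC/C substrate, and *Tpx2* and *Aurkb* are both APC/C substrates and regulators or relatives of Aurora A. Of 13 tested partners and regulators of CDK1, 3 were higher and 1 lower, with a median log2 fold change of 0.29. The higher ones were *Ccna2*, with 318 normalized reads in control liver and 610 in iFIRKO liver, *Mastl*, the Greatwall kinase gene, with 49.7 and 98.6, and *Cdkn1a*, the p21 inhibitor gene, with 2536 and 4508. The higher genes thus included an inhibitor of the cell cycle. *Gadd45a*, a growth arrest gene, was the lower one at 296 and 182 normalized reads. The abundant Greatwall substrates *Ensa* and *Arpp19* had log2 fold changes of -0.17 and 0.22. *Ccnb3* was listed at 0 in both libraries.

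The APC/C itself differed little between the libraries. None of its 14 core subunit genes was past 1.5-fold in either direction, and most genes tested were not, so the count says little. Their log2 fold changes ran from -0.02 to 0.48 with a median of 0.09. The most abundant, *Anapc5*, had 3273 normalized reads in control liver and 3446 in iFIRKO liver, and *Anapc10*, at the upper end of the range, had 130 and 183. *Anapc1*, *Anapc2* and *Anapc4* had log2 fold changes of 0.05, 0.19 and 0.27. Intervals of the ratio lay above 1 for *Anapc2* (1.037 to 1.258), *Anapc4* (1.049 to 1.395), *Anapc10* (1.02 to 1.981) and *Cdc27* (1.015 to 1.265). Those of the other subunits included 1. The core subunits had a median level of 138 normalized reads per kilobase in control liver and 157 in iFIRKO liver, beside 124 and 490 for *Cdc20*. These levels carry the same uncertainty of exon length. The counting interval of *Cdc20*, from 102 to 148 in control liver, held the median of the subunits there, and the one in iFIRKO liver, from 446 to 538, lay above it.

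Other regulators of the APC/C had a median log2 fold change of 0.24. They were not past 1.5-fold either, in 7 of 7 tested, as was true of most genes tested. *Fzr1* had 540.1 and 540.3 normalized reads, level within an interval of the ratio from 0.840 to 1.19. *Ube2s*, at 558 and 832, fell just short of the threshold with a log2 fold change of 0.57. Its ratio had an interval from 1.28 to 1.74. The checkpoint genes *Mad2l1*, *Bub1b* and *Bub3*, whose products hold CDC20 back until chromosomes are attached, had log2 fold changes of 0.39, 0.26 and 0.24. Intervals of the ratio lay above 1 for *Mad2l1* (1.11 to 1.57) and *Bub3* (1.05 to 1.33), as for 20% of the genes tested. That of *Bub1b*, from 0.893 to 1.63, included 1. *Ube2d1*, another APC/C ubiquitin-conjugating enzyme, was at -0.16, and *Fbxo5*, which encodes the interphase inhibitor EMI1, at -0.34 with an interval of the ratio from 0.423 to 1.45. *Fbxo43* was listed at 0 in both libraries.

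Of 16 other genes whose products the APC/C marks for destruction, 8 were higher and 1 was lower, with a median of 0.63, *Ccna2*, *Tpx2* and *Aurkb* of the other lists being among the 8. *Nek2*, a centrosome kinase gene, had 238 normalized reads in control liver and 639 in iFIRKO liver, *Ckap2* had 235 and 593, and *Cdca3* had 295 and 688. *Rrm2*, a ribonucleotide reductase subunit gene, was also higher at 755 and 1264. *Tk1*, the thymidine kinase gene and the most abundant of the list, was the lower one at 1920 and 1044 normalized reads, a ratio of 0.544 with an interval from 0.488 to 0.606. Substrates that supply nucleotides thus lay on both sides.

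Among regulators and relatives of PLK1 and Aurora A, 5 of 10 tested genes were higher and 0 lower, with a median of 0.55. *Bora*, the Aurora A cofactor that primes PLK1, had 45.4 and 89.3 normalized reads, and *Tpx2*, which activates Aurora A on the spindle, had 236 and 471. The chromosomal passenger genes *Aurkb* (129 and 257), *Cdca8* (110 and 235) and *Birc5* (207 and 361) were the other three, while *Incenp*, the scaffold of the same complex, was at a log2 fold change of 0.30. The relatives *Plk2*, *Plk3* and *Plk4*, which serve stress responses and centriole duplication, had log2 fold changes of 0.15, -0.27 and 0.28, and *Ajuba* one of 0.30. *Aurkc* was listed at 0 in both libraries.

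Downstream of securin, 3 of 11 separase and cohesin genes were higher. *Espl1* had 88.4 normalized reads in control liver and 192 in iFIRKO liver, and the cohesin protectors *Sgo1* and *Sgo2a* had 50.3 and 82.5, and 62.6 and 105. The ratio of *Sgo1*, 1.64, had an interval from 0.987 to 2.85 that includes no difference. The cohesin ring and its regulators were nearly level, with log2 fold changes of 0.06 for *Rad21*, 0.08 for *Smc1a*, -0.06 for *Smc3*, -0.08 for *Stag1* and -0.27 for *Stag2*. *Pds5a*, *Pds5b* and *Wapl* had -0.10, -0.0016 and -0.0030.

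**Figure D3:**
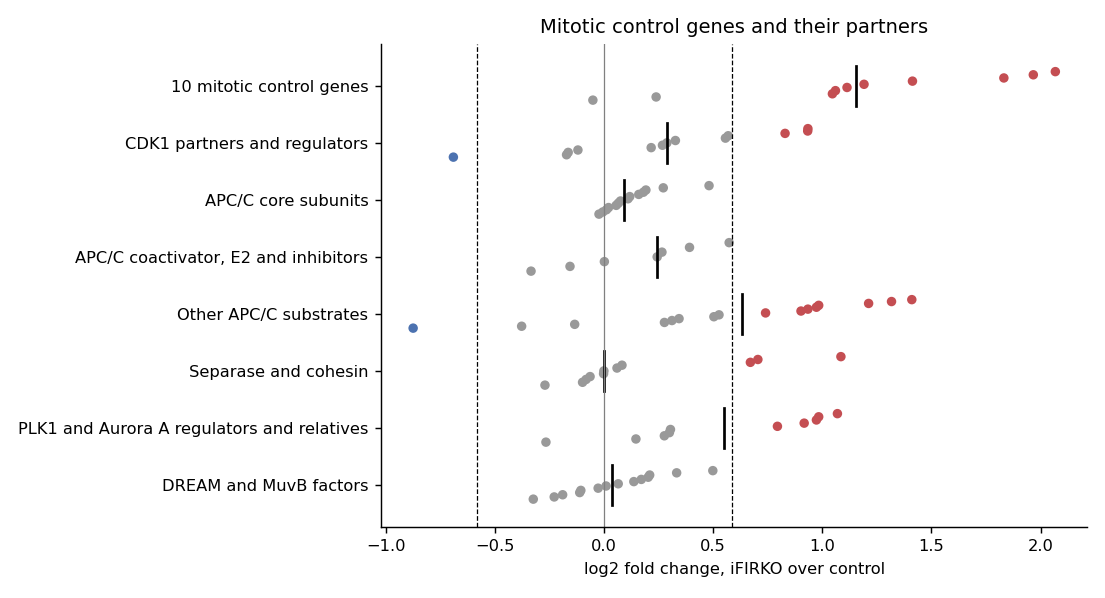
Log2 fold change of iFIRKO over control for each tested gene (1 point per gene, red when more than 1.5-fold higher, blue when more than 1.5-fold lower) in the 10 mitotic control genes and 7 lists of partners, with black bars at list medians and dashed lines at 1.5-fold. The APC/C core subunits and the DREAM and MuvB factors hold 0 genes past the lines, while the other APC/C substrates hold 8 above and 1 below.

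G2 and M phase genes are held silent in resting cells by the DREAM complex and are switched on by MuvB with B-MYB and FOXM1, which meet the promoter at a CHR element next to boxes for the factor NF-Y. None of 14 tested genes of these factors was past 1.5-fold, and their median log2 fold change was 0.04. *Foxm1* had 179 and 255 normalized reads, a ratio of 1.42 with an interval from 1.07 to 1.88, *Lin9* had a log2 fold change of 0.33, and *Mybl2*, the B-MYB gene, had 51.5 and 40.3 normalized reads with a ratio of 0.782 and an interval from 0.413 to 1.45. The abundant *Rbbp4*, *Rbl2* and *Tfdp1* had log2 fold changes of 0.0085, -0.23 and -0.03.

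The promoters of the mitotic control genes were searched for these elements. RefSeq supplied a window of 250 bases before to 50 bases after the start for 9 of the 10 genes, on GRCm38.p6, and *Cdc25c* had no entry. The motifs were the CHR, TTTGAA, its variant TTCGAA, the NF-Y box, CCAAT, and the E2F sites TTTGGCG and TTTCGCG, each on both strands, with the palindrome TTCGAA counted once and overlapping matches kept. The windows below run from 100 bases before to 50 bases after the start, 5′ to 3′ along the gene, with motif matches in capitals. *Cdk1*, *Ccnb2*, *Cdc20* and *Plk1* hold a CHR and an NF-Y box, *Ccnb1* had the widest gap between the libraries, and *Pttg1* was level.
Cdk1, chr10:69352863-69353012, reverse strand: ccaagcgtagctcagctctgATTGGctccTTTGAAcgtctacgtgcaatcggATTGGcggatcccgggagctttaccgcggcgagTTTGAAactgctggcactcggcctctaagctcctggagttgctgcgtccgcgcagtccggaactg
Ccnb2, chr9:70421505-70421654, reverse strand: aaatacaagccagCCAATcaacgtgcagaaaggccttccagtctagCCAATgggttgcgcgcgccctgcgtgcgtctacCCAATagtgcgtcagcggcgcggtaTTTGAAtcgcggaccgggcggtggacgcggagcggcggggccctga
Cdc20, chr4:118437294-118437443, reverse strand: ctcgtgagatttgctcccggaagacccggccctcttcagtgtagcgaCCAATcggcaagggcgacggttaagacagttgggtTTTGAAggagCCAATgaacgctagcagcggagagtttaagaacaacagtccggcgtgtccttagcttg
Plk1, chr7:122159335-122159484, forward strand: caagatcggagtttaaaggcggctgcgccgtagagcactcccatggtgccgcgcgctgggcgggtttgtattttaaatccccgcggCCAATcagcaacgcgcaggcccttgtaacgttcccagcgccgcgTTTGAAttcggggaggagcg
Ccnb1, chr13:100786437-100786586, reverse strand: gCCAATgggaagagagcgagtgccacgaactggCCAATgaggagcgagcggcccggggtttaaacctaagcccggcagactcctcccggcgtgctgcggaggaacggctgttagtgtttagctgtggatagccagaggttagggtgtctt
Pttg1, chr11:43425932-43426081, reverse strand: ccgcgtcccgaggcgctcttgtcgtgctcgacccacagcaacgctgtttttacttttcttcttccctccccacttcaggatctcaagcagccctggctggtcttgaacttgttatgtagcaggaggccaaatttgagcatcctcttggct

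The TTTGAA element was found in 6 of the 9 windows, those of *Cdk1*, *Ccnb2*, *Cdc20*, *Plk1*, *Aurka* and *Ube2c*, beside 17.9% of all 32851 RefSeq windows. *Cdc25b* held the variant TTCGAA at position 8, which is in 1.56% of windows. An NF-Y box was present in 8 of the 9, beside 37.4%, and 6 of the 9 held at least 2 boxes, beside 11.7%. Both TTTGAA and an NF-Y box stood in 6 of the 9 windows, beside 6.95%. The *Ccnb1* window held 2 NF-Y boxes and no match to TTTGAA or TTCGAA, the only CHR forms searched. The *Pttg1* window held no match to any of the motifs. Each statement is about these letters in this window alone. The *Pttg1* window lies inside the GENCODE gene, whose 5′ end is at 43426251, so the sequence before that end was not searched. Its empty window is therefore no statement about the promoter at that end. An E2F site was found in *Cdk1* only, 131 bases before the start, beside 2.37% of windows with either form. Promoters of the genes that were higher and those that were level were not tested against each other.

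The spacing of the NF-Y boxes was seen in the sequences first and then counted. In 5 of the 9 windows a pair of boxes began 31 to 33 bases apart, at 32 bases in *Aurka*, *Ccnb1* and *Cdk1*, 33 in *Ccnb2* and 31 in *Ube2c*. Such a pair was present in 0.971% of all windows. In *Ccnb2* the 3 boxes began 87, 54 and 21 bases before the start, and in *Ube2c* 6 boxes were found, of which 2 overlapped.

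**Figure D4:**
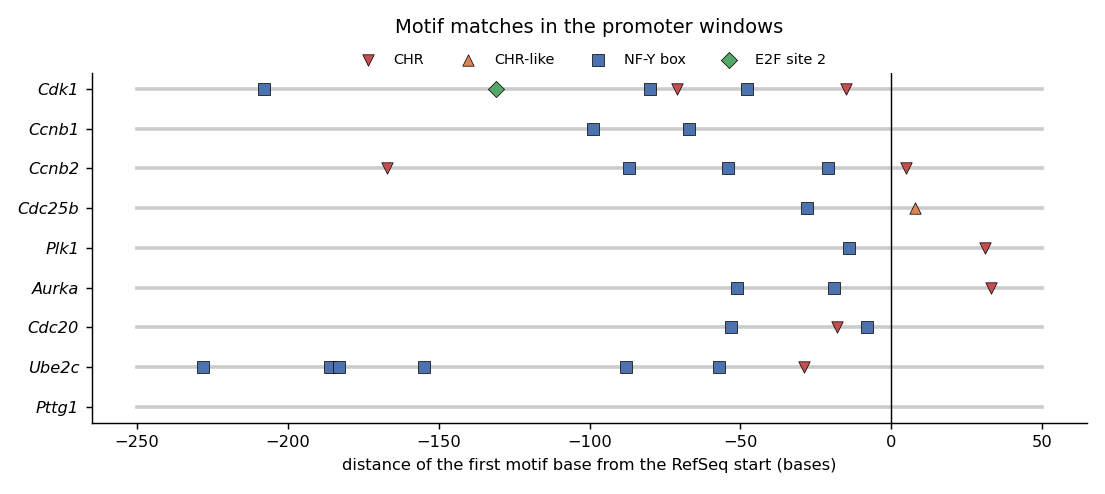
Position of each motif match in the RefSeq promoter windows of 9 mitotic control genes, as the distance of its first base from the start in bases, with CHR elements as triangles, NF-Y boxes as squares and the E2F site as a diamond. *Cdk1*, *Ccnb2*, *Plk1*, *Aurka*, *Cdc20* and *Ube2c* hold at least 1 CHR and 1 NF-Y box. The window of *Pttg1*, which lies inside the GENCODE gene, is empty.

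Over the 2 libraries, likeness to these genes comes down to a level and a fold. The 5 tested genes nearest to their median log2 fold change and median log2 level were *Ect2* (196 and 451 normalized reads), *Gm7329* (180.4 and 430.1), *Rad51b* (182 and 400.2), *Spc25* (208 and 452) and *Aqp4* (178 and 449). *Ect2* acts in cytokinesis and *Spc25* at the kinetochore, while *Aqp4* encodes a water channel, and with 1 library of each genotype the match carries no more than those values.

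Transcripts of other cells differed between the libraries as well, and their part in the difference of the mitotic genes was not tested. Of 9 tested erythroid markers, 6 were higher and 2 lower, and the 14 listed summed to 17070 normalized reads in control liver and 30554 in iFIRKO liver, led by the globins *Hbb-bs* (4415 and 8679) and *Hba-a1* (3358 and 6524), which share reads with near-identical copies. Of the other erythroid markers, *Alas2*, the heme synthesis gene of red cells, had 640 and 1921 normalized reads and *Slc4a1*, the band 3 gene, had 27.8 and 64.4, both higher. *Klf1*, an erythroid transcription factor gene, had 105 and 50.3 and *Epor*, the erythropoietin receptor gene, had 60.3 and 37.4, both lower. *Tfrc*, which other cells also express, had 3426 and 3444, and *Gata1* was listed at 0 in both libraries. Leukocyte markers were lower, in 7 of 10 tested Kupffer cell and macrophage genes (sums of 38683 and 24953), 5 of 6 B cell genes (955 and 389), 2 of 2 neutrophil genes (439 and 142 over all 8 listed) and the 1 T and NK cell gene tested (252 and 144 over all 8 listed). Endothelial markers were lower in 3 of 8 genes and megakaryocyte markers in 1 of 3, with sums of 12473 and 8867 and of 313 and 231, and 0 of 8 stellate and 0 of 5 cholangiocyte genes were past 1.5-fold, with sums of 12625 and 13807 and of 2359 and 2048. Of 12 hepatocyte markers 1 was lower, with sums of 5960224 and 5554411. Of 2 tested adipocyte markers *Cidec*, which liver also expresses, was higher at 17.9 and 108, *Fabp4* had 469.9 and 469.0, and *Lep* was listed at 0 in both libraries.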

How the data were processed

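TruSeq stranded mRNA libraries of total liver RNA were sequenced on a NovaSeq instrument. The authors deposited, per gene symbol, the log2 of a read count scaled by 1 factor per library, with scaled values of 1 or less written as 0. The labels name build mm10, and the aligner, counter and annotation are not given in the sources used here. The commonest low value was taken as 1 read pair, which made 47.4% (control) and 50.3% (iFIRKO) of values under 40 whole reads within 0.01, so depth and read pairs are estimates and no count model was used. No p-value was computed, since each genotype has 1 library. Ratios carry exact Clopper-Pearson intervals and levels exact Poisson intervals. No ratio is given for a gene with 3 read pairs or fewer in a library, but the calls over all genes had no such limit. Positions and exon lengths came from GENCODE M21 and promoters from RefSeq. Protein sequences were not used here, so the planned search for degrons in proteins was not made. The genes, lists, pairs and motifs were chosen with earlier results of these data known. Named are the 10 genes, all of a list of 11 or fewer, otherwise 3 by level and 3 by fold, copies, and the 5 nearest genes. Marker lists are represented by up to 2 genes and those at 0. *Gadd45a*, *Cdc25a*, *Ccnb3*, *Cdc27*, *Alas2*, *Slc4a1*, *Klf1*, *Epor* and *Tfrc* were named after their values were seen. Calls and intervals were tested on simulated Poisson counts of whole read pairs, which hold no fractional counts and no variation between mice. Changes were planted only at a fold of 2, in either direction, in genes above about 209 reads. Calls of a change near 1.5-fold, or in genes with fewer reads such as *Cdc25b* and *Cdc25c*, were not checked. Alternatives were other pseudocounts, minimums, scalings, a fold of 2, summed duplicate symbols, and, added after seeing the data, copies summed with their gene. Computation used scipy 1.17.1, pandas 2.3.3 and numpy 2.4.6 under Python 3.11.15, and figures matplotlib 3.10.9.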

Additional observations from a re-analysis of the deposited data

How the results depend on the processing

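The 10 mitotic control genes kept 8 higher and 0 lower under other pseudocounts, scalings, summed duplicate symbols, no minimum and a fold above 2. None of their 89 values under an alternative left its counting interval, but many of these could not. A different minimum or summed duplicate symbols leave a member's value as it was, and the plain ratio lies inside its own interval by construction. Only the larger pseudocount, the scalings and the summed copies could move a value. With the minimum in both libraries *Cdc25c* was not tested, and with a minimum of 209 normalized reads neither it nor *Cdc25b* was, which left 7 higher under each. Over all genes tested, 597 were higher and 976 lower. The counts were 371 higher and 576 lower at a pseudocount of 41.8 normalized reads, 1960 and 2620 without a minimum, 288 and 440 at the minimum of 209, and 209 and 267 at a fold above 2. Separase and cohesin genes higher went from 3 to 1 with that pseudocount, 0 with that minimum and 1 at a fold above 2. At a fold above 2, CDK1 partners higher went from 3 to 0, other APC/C substrates from 8 to 3, and PLK1 and Aurora A regulators from 5 to 1. No value changed direction while past the threshold. No paired analysis was possible because each genotype has 1 library. Depth limits the genes with the fewest reads, among them *Cdc25c*, *Cdc25b*, *Bora* and *Mastl*, and these libraries show the variation between mice for no gene.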

Other observations

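Beyond the mitotic control genes, 9885 other tested genes had a RefSeq promoter window, of which 4.28% were higher in iFIRKO liver by over 1.5-fold and 6.77% were lower. Of the 706 whose window held a CHR or its variant together with an NF-Y box, 62 (8.78%) were higher and 53 (7.51%) were lower. Of the 4748 with neither motif, 164 (3.45%) were higher and 300 (6.32%) lower. With an NF-Y box alone 4.23% of 3448 genes were higher, and with a CHR or its variant alone 5.02% of 856. The remaining 127 genes have several windows, with the CHR and the NF-Y box in different ones, and 8 of them were higher and 14 lower. A pair of NF-Y boxes 31 to 33 bases apart was found for 190 genes, of which 5.79% were higher and 6.84% lower. These are counts from 1 library of each genotype, and the differences between promoter classes were not tested.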
